A study of Mus musculus with 45 samples.

Results

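Chromatin accessibility after 2 h of NANOG depletion was compared with that of cells that received the DMSO vehicle (NT) in mouse embryonic stem cells. The comparison rests on 5 ATACseq libraries of NANOG-FKBP cells, NT replicates 1 and 2 and 2 h replicates 1, 2 and 3, out of 45 samples in the series, of which 31 have a column in the table of fragment counts. They were taken by the line and time in their titles. NANOG is a homeodomain protein that binds short DNA words with a TAAT core. Together with OCT4 (the Pou5f1 product) and SOX2 it occupies enhancers of genes that keep embryonic stem cells pluripotent, and SOX2 and OCT4 are regarded as pioneer factors that open chromatin. In ATACseq the Tn5 transposase cuts accessible DNA, and the count of fragments over a region reports how open it is.

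In NANOG-FKBP cells both copies of Nanog carry a C-terminal FKBP tag with an HA epitope and a fluorescent protein separated by a self-cleaving peptide. dTAG-13 directs a tagged protein to the proteasome and was given at 500 nM. The line derives from E14 cells, is grown in serum-free medium with LIF, a MEK inhibitor and a GSK3-β inhibitor, and is a clone that was selected for its response to dTAG-13. All 5 libraries share this tag and medium, and by their labels the treated libraries differ from the NT libraries by dTAG-13 alone. The files hold no measure of NANOG protein, and no untagged line was given dTAG-13 for ATACseq here. The methods describe the NANOG experiments as duplicates, whereas the labels list 3 treated libraries, and all were used as labelled. Nothing says whether these are separate cultures, so p-values measure the spread between libraries. That spread was estimated over 27 libraries of 3 lines fitted together. For comparison, SOX2-FKBP cells (also E14) and OCT4-FKBP cells (V6.5) were treated the same way, with 2 NT and 2 treated libraries at 2 h each.

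The 5 libraries differ in depth, and 1 stands apart. NT replicates 1 and 2 hold 7102925 and 6035633 fragments in peaks, and 2 h replicates 1, 2 and 3 hold 11625816, 1817191 and 5099730. On the mitochondrial genome lie 3.65% and 3.83% of the NT fragments and 3.21%, 17.6% and 4.41% of the treated ones. In 2 h replicate 2 the median tested peak has 4 fragments, and 23.6% of the tested peaks have at least 10, against 60.4% to 91.0% in the other 4 libraries. Levels are given as normalized counts, scaled with TMM factors to the mean effective library size of 9492670 fragments, so that a fragment counts as 6.21 in 2 h replicate 2 and as 0.788 to 1.89 in the others. Results are therefore given with and without that library. Promoter peaks of 7 of 8 embryonic stem cell markers were tested (Pou5f1 has none within 500 bp of its start), and their summed level was 1920 to 1980 in NT and 1780 to 2280 at 2 h. The promoter peaks of fibroblast, primitive endoderm and trophoblast markers summed to 330 to 455, 819 to 1280 and 334 to 493 in NT and to 311 to 480, 870 to 1330 and 344 to 481 at 2 h. None of the 26 marker peaks was called in edgeR or DESeq2, and 0 of them were lower and 0 higher at an unadjusted p under 0.05.

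A small set of mostly distal regions was less accessible at 2 h, and few peaks were called more accessible. Of 166430 peaks tested, 1561 (0.938%) were lost and 27 (0.0162%) were gained at an adjusted p of 0.05 (edgeR's quasi-likelihood test over all peaks, 27 libraries fitted together). The losses were deep: lost peaks changed by a median of -1.66 on the log2 scale, and 1502 of them (96.2%) had a log2 fold change of -1 or lower, whereas the median of all tested peaks was 0.00. In 1555 of the lost peaks (99.6%) all 3 treated libraries lay below both NT libraries, an arrangement found in 11.6% of all tested peaks. The same libraries made the call, so this describes the lost peaks and is no support for them. Lost peaks kept a median of 30.4%, 30.1% and 32.6% of their NT level in 2 h replicates 1, 2 and 3.

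Without 2 h replicate 2 the same fit called 1337 peaks lost (0.803%) and 18 gained (0.0108%), and 1244 losses and 14 gains were called both ways. The left-out library can then be read on its own. Of the 1337 peaks, 1291 (96.6%) lay below both NT libraries in replicate 2, against 44.5% of all tested peaks, and their median level there was 33.3% of NT, against 91.7% for all tested peaks. The NT libraries in that reading are the ones that chose the peaks. The count leans more on 2 h replicate 1 and on NT replicate 1: without the former 426 peaks were lost and 9 gained, and without the latter 542 were lost and 17 gained. Without NT replicate 2, 1175 were lost and 10 gained. Over all alternatives the counts ran from 86 to 3301 lost and from 0 to 562 gained, with more losses than gains in each.

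**Figure D1:**
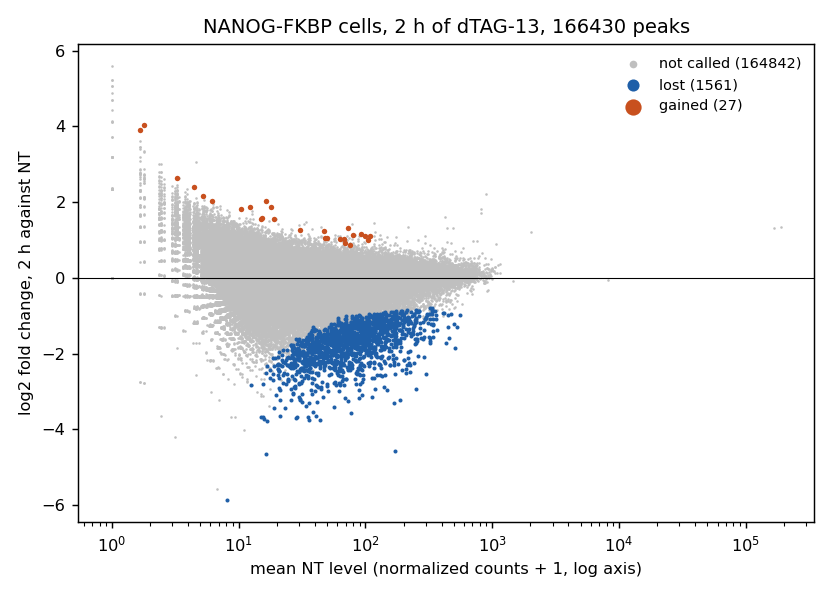
Each point is a peak, with its mean level in the 2 NT libraries on a log axis (normalized counts + 1) and its log2 fold change at 2 h of NANOG depletion on the vertical axis. The 1561 lost peaks (blue) lie below the axis at middle NT levels, with a median of 75.6 normalized counts, and the 27 gained peaks (orange) are few beside them.

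The sequences around the summits of 5 lost peaks show what the NANOG-type words look like in place. Each is the plus strand of 200 bases from 100 before to 99 after the summit, mm10, with TAATGG in capitals, and likewise TAATTG and the reverse complements of both. Rtf1 is the deepest named loss and has no such word. Bach2 and Nlrp4f are named losses with 1 word. Cfap46 and Tenm4 were picked, after their values were seen, from the lost peaks with at least 3 words.
Rtf1 chr2:119730825-119731024: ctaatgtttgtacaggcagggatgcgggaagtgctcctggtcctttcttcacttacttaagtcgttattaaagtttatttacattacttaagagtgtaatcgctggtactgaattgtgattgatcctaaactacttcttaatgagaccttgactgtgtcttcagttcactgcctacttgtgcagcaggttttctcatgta
Bach2 chr4:32241361-32241560: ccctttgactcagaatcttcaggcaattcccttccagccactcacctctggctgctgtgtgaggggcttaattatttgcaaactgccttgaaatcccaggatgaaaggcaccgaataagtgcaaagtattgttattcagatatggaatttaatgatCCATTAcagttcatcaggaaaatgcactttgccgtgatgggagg
Nlrp4f chr13:65174161-65174360: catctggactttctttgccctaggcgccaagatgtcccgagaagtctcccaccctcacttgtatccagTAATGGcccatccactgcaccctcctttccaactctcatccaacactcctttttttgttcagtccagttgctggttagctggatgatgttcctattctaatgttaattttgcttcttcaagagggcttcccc
Cfap46 chr7:139725837-139726036: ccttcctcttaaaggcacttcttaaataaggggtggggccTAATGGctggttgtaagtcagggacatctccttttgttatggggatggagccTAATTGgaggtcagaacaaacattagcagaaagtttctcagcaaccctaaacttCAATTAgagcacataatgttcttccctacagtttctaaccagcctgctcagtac
Tenm4 chr7:96652162-96652361: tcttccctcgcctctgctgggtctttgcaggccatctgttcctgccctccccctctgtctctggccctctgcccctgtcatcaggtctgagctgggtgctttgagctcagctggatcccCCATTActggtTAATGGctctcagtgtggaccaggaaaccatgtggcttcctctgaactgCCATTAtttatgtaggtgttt

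The Rtf1 peak closed almost completely. It lies in an intron of Rtf1, which encodes a subunit of the PAF1 elongation complex, at chr2:119730661-119731424, with its summit 4241 bp downstream of the start. NT replicates 1 and 2 had 160 and 78 fragments (214 and 123 normalized counts), and 2 h replicates 1, 2 and 3 had 10, 0 and 4 (7.88, 0 and 7.55). The groups are far apart, and the treated mean was 3.05% of the NT mean. The log2 fold change was -4.56 (SE 0.37, adjusted p = 2.99e-10, edgeR) with all libraries and -4.43 (adjusted p = 2.76e-09) without 2 h replicate 2.

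The peak in an intron of Bach2, a transcriptional repressor known from lymphocytes, lies at chr4:32241195-32241843, 2384 bp downstream of the start. Its level was 152 and 223 normalized counts in NT and 16.5, 12.4 and 28.3 at 2 h. Treated libraries stayed well below both NT libraries, and the log2 fold change was -3.23 (SE 0.31, adjusted p = 3.76e-08, edgeR). Without 2 h replicate 2 it was -3.17 (adjusted p = 4.95e-07).

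A peak between Myc, the growth-promoting transcription factor gene, and the noncoding gene Pvt1 fell from a high level. At chr15:62012293-62013085, intergenic and 25457 bp from the nearest Myc start, NT levels were 259 and 237 normalized counts and 2 h levels 26.8, 37.3 and 39.6. The replicates of each group were close to each other here. The log2 fold change was -2.94 (SE 0.27, adjusted p = 1.43e-08, edgeR), and -2.98 without 2 h replicate 2.

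The Naa35 peak (chr13:59591331-59593022, in an intron, 3012 bp from a start) lies in the gene of a subunit of the NatC N-terminal acetyltransferase. It had 199 and 133 normalized counts in NT and 21.3, 6.21 and 11.3 at 2 h, a log2 fold change of -3.32 (SE 0.41, adjusted p = 6.49e-06, edgeR). All 200 bases around its summit are masked as repeat in the reference. Only reads of mapping quality 10 or more were kept, but placement in a repeat can be less sure, so the value is uncertain. Of the other named peaks, Rwdd4a (62.0% of the 200 bases), Cdc37l1 (56.0%) and Cyb5r3 (54.0%) are masked over most of that window.

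The Rbpj peak, in an intron, sits at the gene of the DNA-binding effector of Notch signalling. Its level was 115 and 177 normalized counts in NT and 16.5, 18.6 and 22.7 at 2 h, so replicate 2 lay between the other treated libraries. The log2 fold change was -2.95 (SE 0.50, adjusted p = 0.000635, edgeR). The Nlrp4f peak (chr13:65174097-65174460, intergenic, 7370 bp from the start) had 127 and 94.8 in NT and 14.2, 6.21 and 11.3 at 2 h, a log2 fold change of -3.14 (SE 0.34, adjusted p = 4.52e-07). Nlrp4f is a member of a family of NLR genes expressed in oocytes.

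The other 9 of the 15 deepest named losses had log2 fold changes between -3.56 and -2.94, and in each of them the 3 treated libraries lay below both NT libraries, which the naming rule required. They lie at Ephb1 (an ephrin receptor), Epc2 (an enhancer of polycomb homolog), Syt16 (a synaptotagmin), Gtf2a1 (a subunit of the general factor TFIIA), Eml4 (a microtubule-associated protein), Rwdd4a, Lrrc4c (a netrin-G ligand), Kdm3b (a histone H3K9 demethylase) and Tnrc18. The weakest of these calls were Ephb1 (adjusted p = 0.000619), Epc2 (0.000264) and Lrrc4c (0.00056) in edgeR's quasi-likelihood test. At Ephb1 the NT libraries were 104 and 49.0 normalized counts and the treated ones 8.66, 0 and 3.78. At Lrrc4c they were 45.4 and 77.4 against 3.15, 12.4 and 15.1. In Ephb1, Epc2, Eml4 and Rtf1 the shallow replicate 2 held 0 fragments.

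**Figure D2:**
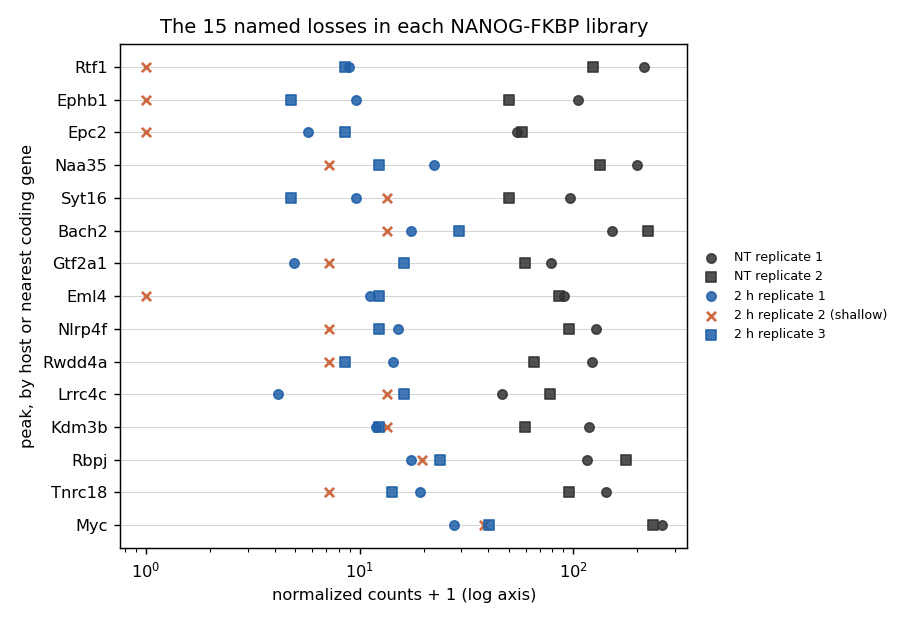
The 15 named losses, from the largest change at the top, with the level in each of the 5 libraries on a log axis (normalized counts + 1). Grey symbols are NT replicates, blue symbols 2 h replicates 1 and 3, and orange crosses the shallow 2 h replicate 2. Every treated symbol sits to the left of both NT symbols.

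Some of the most open peaks of NANOG-FKBP cells fell too. Among those that met the naming criteria, the highest by NT level was in an intron of Gss, the glutathione synthetase gene (chr2:155589638-155591538), with 588 and 458 normalized counts in NT and 224, 186 and 221 at 2 h (log2 fold change -1.29, SE 0.24, adjusted p = 0.00206, edgeR). An intron of Tet2, which encodes an enzyme that oxidizes 5-methylcytosine, held the next (chr3:133524187-133526483, 19419 bp downstream of the start). Its levels were 524 and 501 in NT and 125, 137 and 166 at 2 h, with little spread in either group. Its log2 fold change was -1.85 (SE 0.24, adjusted p = 1.36e-05) and -1.84 without 2 h replicate 2.

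A peak 20045 bp from the start of Foxd3, a forkhead factor of pluripotent cells and neural crest, had 477 and 427 normalized counts in NT and 122, 143 and 187 at 2 h (chr4:99635683-99637371, intergenic, log2 fold change -1.60, SE 0.28, adjusted p = 0.000857, edgeR). The other 2 of the 5 were in Prickle2, a planar cell polarity gene, and at Cdc37l1, related to an Hsp90 cochaperone. Prickle2 went from 503 and 446 to 229, 292 and 230 (log2 fold change -0.96, adjusted p = 0.0354), the weakest call of the group. Cdc37l1 went from 460 and 441 to 169, 199 and 187 (log2 fold change -1.31, adjusted p = 0.00112).

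Loci of pluripotency genes held losses at about the share of all tested peaks. Of 77 tested peaks within 50 kb of Nanog, Pou5f1 or Sox2, 1 was lost (1.3%, against 0.938% of all tested peaks). It lies 15469 bp upstream of Pou5f1 (chr17:35489556-35491144), with 275 and 229 normalized counts in NT and 135, 155 and 136 at 2 h. The log2 fold change was -0.86 (SE 0.21, adjusted p = 0.0331, edgeR), and -0.90 (adjusted p = 0.0448) without 2 h replicate 2. This call is fragile: it was made in 12 of 19 alternatives, with an adjusted p of up to 0.383. The median log2 fold change of the 77 peaks was 0.16.

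Among 331 peaks near 14 regulators of naive pluripotency 4 were lost (1.21%, median of the list 0.05), and 2 of them were also called without 2 h replicate 2. The one with the smallest p lay 22733 bp from Klf5, a Krüppel-like factor of naive cells (chr14:99274868-99276154), with 167 and 142 normalized counts in NT and 33.9, 18.6 and 32.1 at 2 h (log2 fold change -2.30, SE 0.40, adjusted p = 0.000799, edgeR). A peak in an intron of Apobec1 (chr6:122590910-122591805), 35115 bp from Dppa3 and 18529 bp from Gdf3, had 118 and 93.2 in NT and 44.9, 24.8 and 45.3 at 2 h. Its log2 fold change was -1.32 (adjusted p = 0.018, and 0.0486 without replicate 2), and it is also the only loss among 179 peaks near SOX2-OCT4 targets and Nodal pathway genes (0.559%, median 0.11).

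The other 2 calls near naive regulators were not made without 2 h replicate 2. At Tbx3, a T-box factor (chr5:119720558-119721824, 40759 bp away), the level was 239 and 202 in NT and 99.2, 87.0 and 106 at 2 h, a log2 fold change of -1.15 with an adjusted p of 0.0231 in edgeR, and 0.0574 without that replicate. At Esrrb, an orphan nuclear receptor of naive cells, an intronic peak of low level (chr12:86388410-86388867) had 16.0 and 33.2 in NT and 3.94, 6.21 and 5.66 at 2 h (log2 fold change -2.35, adjusted p = 0.0452, and 0.0627 without it). The 6.21 in replicate 2 is 1 fragment and the highest of the treated values. Without that replicate the log2 fold changes were -1.12 at Tbx3 and -2.40 at Esrrb, so the size of the change does not come from it.

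Genes that report on LIF, ERK and WNT signalling had 7 lost peaks of 347 (2.02%, against 0.938% of all tested peaks, median 0.03), of which 5 were also called without 2 h replicate 2, where 0.803% of all tested peaks were lost. Of the 7, 3 lay at Spry4, a feedback inhibitor of receptor tyrosine kinase signalling. Their summits are 27540, 24570 and 8392 bp from Spry4 starts on chromosome 18, and their mean levels went from 84.1 ± 22.8 (SD, n = 2) to 28.4 ± 4.98 (SD, n = 3), from 41.0 ± 20.2 to 9.47 ± 4.90 and from 57.4 ± 28.3 to 14.5 ± 5.56 normalized counts (log2 fold changes -1.56, -2.09 and -2.04, adjusted p = 0.0027, 0.014 and 0.013, edgeR). At Socs3, the STAT3 feedback inhibitor, a peak 22069 bp from the start (chr11:117946705-117947319) had 58.8 and 34.8 in NT and 13.4, 6.21 and 13.2 at 2 h (log2 fold change -1.90, adjusted p = 0.0176).

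The last 3 calls of that list fall outside the naming rule and complete it. A peak in an intron of Dhx8, 24158 bp from Etv4, had a log2 fold change of -2.02 (adjusted p = 0.0184, edgeR). A peak in an intron of Etv5 had -1.28 (adjusted p = 0.0383, 0.0562 without 2 h replicate 2), and a peak 26984 bp from Axin2 had -1.74 (adjusted p = 0.0412, 0.0827 without it). Etv4 and Etv5 are ETS factors induced by ERK signalling, and Axin2 is a WNT target. The medium holds a MEK inhibitor and a GSK3-β inhibitor in NT and treated cells alike.

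Lists of other states held 0 calls in edgeR, which says little, since at 0.938% of all tested peaks a list of this size would hold about 1 loss. These were formative and primed epiblast (146 peaks), primitive endoderm (101), trophectoderm (146) and the housekeeping genes (177), with median log2 fold changes of 0.08, 0.01, 0.03 and 0.10. At an unadjusted p under 0.05, 9, 7, 4 and 0 of them were lower and 6, 1, 1 and 2 higher, and DESeq2 called none. Among 172 peaks near DNA methylation genes, the Tet2 peak above was the only loss (0.581%, median 0.01). No list held a gained peak.

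The Nanog locus itself showed no called change at 2 h against NT. Its promoter peak (chr6:122706959-122707804, summit 33 bp upstream of the start) had 221 and 180 normalized counts in NT and 199, 317 and 223 at 2 h. The high value is the shallow replicate 2, and the log2 fold change was 0.22 (SE 0.22, adjusted p = 0.984, edgeR) with it and 0.06 without it. Of 28 tested peaks within 50 kb of Nanog, 23 had a higher and 5 a lower estimate at 2 h, with a median log2 fold change of 0.23 with and 0.12 without replicate 2, and the smallest adjusted p was 0.104. It belongs to a peak 8398 bp downstream of Nanog, with 38.8 and 26.9 in NT and 81.9, 193 and 56.6 at 2 h. Its 2 h change (1.47) differed from SOX2-FKBP and OCT4-FKBP cells (adjusted p of the difference 0.022 and 0.0234, edgeR). At 6 h and 24 h it was called higher than NT (adjusted p = 0.0445 and 0.00577, edgeR). At an unadjusted p under 0.05, 0 of the 28 were lower and 1 higher, and DESeq2 called 0 lost and 0 gained. The tag acts on the protein, so accessibility at the gene does not measure the depletion.

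Gained peaks were few and mostly weak in NT, with a median of 29.7 normalized counts there. The log2 fold changes of the 27 gained peaks (0.0162%) ran from 0.88 to 4.04, with a median of 1.31. The highest fitted value was at an intergenic peak nearest to the coding gene Myoz2, singled out after its values were seen, with 0 and 1 fragments in NT and 16, 1 and 10 at 2 h, so its size rests on 1 NT fragment. With at least 50 normalized counts at 2 h and a call without 2 h replicate 2, 7 gains met the criteria for naming, and the 5 largest of these lay near Cyb5r3, Syt17, Slc6a7, Sez6 and Zfp64. The first of them (chr15:83202479-83203293, intergenic, 30535 bp from Cyb5r3) had 22.7 and 11.1 normalized counts in NT and 58.3, 80.7 and 62.3 at 2 h, a log2 fold change of 1.87 (SE 0.44, adjusted p = 0.0189, edgeR). The Zfp64 peak (chr2:168845653-168846829, intergenic, 66231 bp away) had 86.9 and 96.4 in NT and 226, 193 and 189 at 2 h, a log2 fold change of 1.17 (SE 0.25, adjusted p = 0.01). All 5 gains were called without 2 h replicate 2, but none was called without 2 h replicate 1 or without NT replicate 1.

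Lost peaks were mostly distal. Of them 53.2% had their summit in an intron and 41.4% in intergenic sequence, against 48.2% and 37.9% of all tested peaks. Within 500 bp of a transcription start lay 44 (2.82%), against 14.1% of all tested peaks. Promoter peaks are also stronger than distal ones, so the share was read within ranges of NT level. From 50 to 100 normalized counts 2.87% of the distal and 0.386% of the promoter peaks were lost, from 100 to 200 it was 4.61% and 0.179%, and from 200 to 500 it was 3.47% and 0.132%, the last from 7 of 5318 promoter peaks. The lost peaks were a little wider than all tested peaks (median 772 against 694 bp) and poorer in G and C, with a median of 46.0%, which is under the 46.8% that bounds the poorest quartile of all tested peaks.

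What could be called depended on the level. Below 10 normalized counts in NT 1 of 27554 peaks was lost (0.00363%), and from 10 to 25 it was 65 of 56270 (0.116%). The share rose to 2.46% from 50 to 100 and to 2.91% from 100 to 200, and was 1.39% from 200 to 500 and 0.389% (3 of 772) at 500 or more. Losses were called seldom at weak peaks, and a missing call there says little at this depth.

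NANOG-type words were frequent in the lost peaks. Within 200 bp around the summit 30.9% of the lost peaks held TAATGG or TAATTG on either strand (482 of 1561, Wilson 95% interval 28.6 to 33.2%), against 10.2% of all tested peaks and 10.8% of the tested peaks away from starts. Intervals cover counting error only. Each word alone showed it: TAATGG was in 19.5% of the lost and 5.99% of all tested peaks, and TAATTG in 14.1% and 4.56%. Without 2 h replicate 2 the share was 30.9%, and over whole peaks it was 62.7% against 35.1%. A match is a description of the letters, and binding was not measured here.

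The share of peaks lost rose with the number of words. It was 0.722% (interval 0.681 to 0.767%) with no word, 2.57% (2.34 to 2.83%) with 1, 5.77% (4.59 to 7.22%) with 2 and 11.9% (6.6 to 20.5%) with 3 or more, of which there were 84 peaks and 10 losses. Without 2 h replicate 2 the shares were 0.619%, 2.21%, 4.78% and 11.9%. The median log2 fold change, over called and uncalled peaks with an NT level of at least 50, went from -0.01 to -0.12, -0.34 and -0.67 (22 peaks in the last class). Since TAAT words are rich in A and T, the peaks were also split into quartiles of GC content. In the quartile poorest in G and C, 5.12% of peaks with a word and 1.79% of those without were lost, and in the next quartiles 2.35% against 0.827%, 1.33% against 0.317% and 0.308% against 0.0534%, the last from 7 and 21 lost peaks. A rise with the number of words is not particular to NANOG depletion. With no, 1, 2 and 3 or more words, 4.8%, 7.13%, 9.88% and 16.7% of peaks were lost at 2 h of SOX2 depletion. At 2 h of OCT4 depletion these shares were 4.72%, 8.11%, 11.6% and 17.9%.

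**Figure D3:**
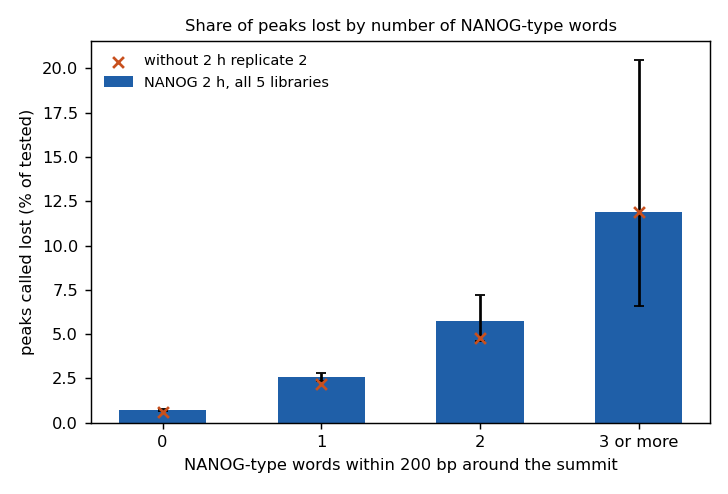
Bars give the percent of tested peaks called lost at 2 h of NANOG depletion by the number of NANOG-type words in the 200 bp around the summit, with Wilson 95% intervals, and orange crosses give the percent without 2 h replicate 2. The bars rise from 0.722% to 11.9%.

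Words of the partner factors were also more frequent than in all tested peaks. SOX words (ACAAAG or ACAATG) were in 45.7% of the lost peaks and 25.5% of all tested peaks, octamers of POU factors (ATGCAAAT or ATGCTAAT) in 9.42% and 3.43%, and the SOX-POU composite TTGTNATGC in 2.31% and 0.954%. The composite can overlap a SOX word, and an octamer can overlap a NANOG-type word. Shares near those of all tested peaks were found for KLF (GGGNGTGG, 12.6% against 13.4%), ESRRB (AAGGTCA, 9.16% against 8.26%), STAT (TTCCNGGAA, 0.833% against 0.942%), TEAD (CATTCCA, 4.87% against 4.24%) and OTX words (TAATCC, 5.89% against 5.62%). AP-1 words (TGANTCA) were less frequent, in 5.45% (interval 4.43 to 6.68%) against 6.98%, as was the core of the CTCF motif (AGGGGGC or AGATGGC), in 8.14% against 12.8%. All were searched on both strands.

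The NANOG-type words were densest close to the summit. In the 20 bp bin just before the summit of lost peaks there were 2.31 matches per 100 peaks per 10 bp, against 0.582 in all tested peaks, 0.873 in peaks lost at 2 h of SOX2 depletion and 1.07 in those lost at 2 h of OCT4 depletion. About 300 bp before the summit (the bin centred at -290 bp) the density was 0.833 in lost and 0.612 in all tested peaks. After the summit it was 1.44 against 0.734 at 270 bp and 1.06 against 0.633 at 290 bp. SOX words peaked at the summit as well, with 4.23 matches in lost peaks, 1.80 in all tested peaks and 5.42 in peaks lost after SOX2 depletion.

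**Figure D4:**
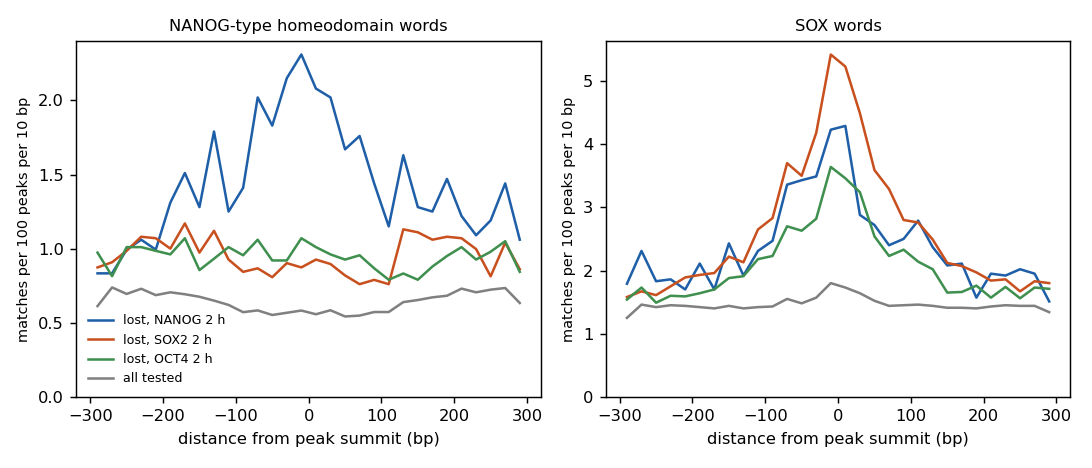
Matches per 100 peaks per 10 bp in bins of 20 bp across 300 bp on each side of the summit, for NANOG-type words (left) and SOX words (right). The blue line of peaks lost at NANOG 2 h rises to 2.31 at the summit on the left, where the lines for SOX2 and OCT4 losses stay near 0.873 and 1.07.

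Fewer of the losses than of all tested peaks lay in repeats. The 200 bp around the summit were masked as repeat over at least 50% of their length in 11.3% of the lost peaks and in 13.9% of all tested peaks, against 28.0% of the peaks lost at SOX2 2 h and 22.0% of those lost at OCT4 2 h. Within masked windows 1.37% of peaks with a NANOG-type word and 0.679% of those without were lost, and outside them 3.14% and 0.729%.

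The lost peaks were also low at later times. At 6 h of NANOG depletion they kept a median of 33.0%, 33.5% and 34.7% of their NT level in replicates 1, 2 and 3, and at 24 h 30.8%, 28.8% and 29.8%. The median log2 fold changes were -1.56 at 6 h and -1.73 at 24 h, beside -1.66 at 2 h. All 3 times are compared with the same NT libraries, so these values share their baseline. Replicate 2 is shallow at 6 and 24 h too, with 13.2% and 16.99% of its fragments on the mitochondrial genome. The Rtf1 peak ranged from 2.27 to 12.3 normalized counts at 6 h and from 4.31 to 8.60 at 24 h, and the Gss peak from 152 to 172 and from 69.0 to 98.3.

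Fewer peaks were called lost at 2 h of NANOG depletion than after loss of the partner factors. In the same fit 8427 peaks (5.06%) were lost at 2 h of SOX2 depletion and 8480 (5.1%) at 2 h of OCT4 depletion. Of the 1561 peaks lost after NANOG depletion, 610 (39.1%) were also lost after SOX2 depletion, which is 7.24% of the SOX2 losses, and 524 (33.6%) after OCT4 depletion, which is 6.18% of the OCT4 losses. In all 3 lines 297 (19.0%) were lost, and 724 (46.4%) were lost in NANOG-FKBP cells with no call in either other line. Since 5.06% and 5.1% of all tested peaks were lost in those lines, at most 5.06% can be lost in both. Over all tested peaks, no call in either is thus far more common than among the NANOG losses. Each line has its own NT libraries, and the lines differ in clone and, for OCT4, in parental strain, so that factor and line cannot be told apart. Depth differs too, and the number of calls depends on it. The NT and 2 h libraries hold 1817191 to 11625816 fragments in peaks in NANOG-FKBP cells. In SOX2-FKBP cells they hold 6479369 to 10531404, and in OCT4-FKBP cells 11316167 to 17575631.

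The difference between lines was tested as an interaction. Among the peaks lost after NANOG depletion, the change was more negative in NANOG-FKBP than in SOX2-FKBP cells at 248 (15.9%, against 0.273% of all tested peaks) and less negative at 15 (0.961%, against 1.48%). Against OCT4-FKBP cells the counts were 527 (33.8%, against 0.907%) and 10 (0.641%, against 1.61%). At 144 peaks (9.22%) the change was more negative than in both other lines, which can hold for at most 0.273% of all tested peaks. The peaks were chosen by their change in NANOG-FKBP cells, which favours this direction. Their median log2 fold change was -0.89 at 2 h of SOX2 depletion and -0.53 at 2 h of OCT4 depletion, against 0.07 and 0.02 for all tested peaks.

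Single loci differed in this respect. At the Rtf1 peak the log2 fold change was -1.23 (SE 0.29) in SOX2-FKBP and -1.81 (SE 0.29) in OCT4-FKBP cells, and both differed from the -4.56 in NANOG-FKBP cells (adjusted p of the difference 5.95e-05 and 0.000759, edgeR). The Naa35 peak changed by -0.17 and -0.28 in the other lines, and the Myc peak by -0.41 and -1.59. At Rwdd4a the SOX2 change (-2.74) was close to the NANOG change (-3.09), whereas OCT4-FKBP cells had 0.66. Prickle2 went the other way: its log2 fold change was -2.45 in SOX2-FKBP cells and -0.96 in NANOG-FKBP cells, a difference of 1.49 (adjusted p = 0.0218). At Klf5 and Socs3 the changes in the other lines lay between -0.25 and 0.82, and all 4 differences passed the test.

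**Figure D5:**
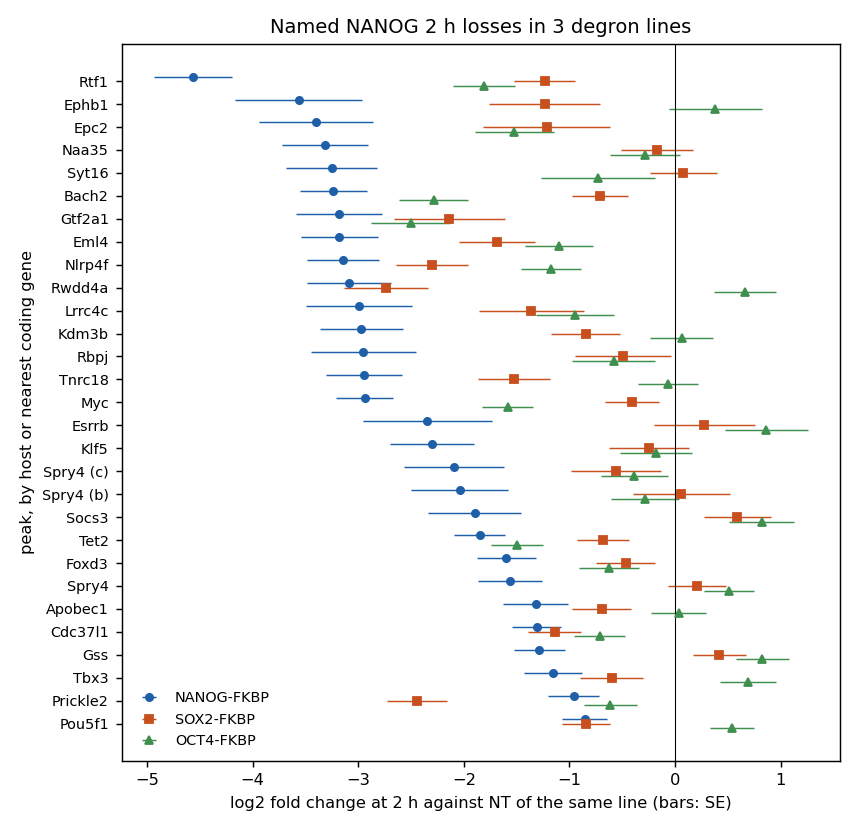
Log2 fold change at 2 h against the NT libraries of the same line for the 29 named losses, with NANOG-FKBP in blue, SOX2-FKBP in orange and OCT4-FKBP in green, and bars of 1 standard error. The blue points were chosen to be negative, and most orange and green points lie to their right, from -2.74 at Rwdd4a in SOX2-FKBP cells to 0.86 at Esrrb in OCT4-FKBP cells.

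The losses shared with OCT4-FKBP cells held more POU words than those with no call in the other lines. NANOG-type words were in 32.0% of the 724 peaks with no call in the other lines, in 29.7% of those also lost after SOX2 depletion and in 29.2% of those also lost after OCT4 depletion. POU octamers were in 4.28% (interval 3.03 to 6.01%) of the former, near the 3.43% of all tested peaks, and in 20.8% of those shared with OCT4. SOX words were in 39.6% of the 724 and in 56.6% of those shared with SOX2. The same NANOG-type words were in 14.8% of all SOX2 losses and 16.8% of all OCT4 losses. POU octamers were in 19.4% of all OCT4 losses and SOX words in 54.2% of all SOX2 losses. For these 2 kinds of word the shared peaks were thus near the share of all losses in the other line.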

How the data were processed

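The authors aligned paired-end ATACseq reads to mm10 with BWA 0.7.17-r1188, used SAMtools 1.10 to keep those of mapping quality 10 or more, removed duplicates with Picard 2.12.0, merged the libraries to call peaks with MACS2, and counted the fragments over each peak (tools and build from the submitters' processing notes, steps from the methods). No shift of fragment ends is given in the sources used here. The deposited counts are raw whole numbers per peak. The deposited peak list also holds a fold enrichment (a ratio to local background) and −log10 p and q values of the pooled libraries, which served to compare no samples. All 31 columns of counts were matched to samples by title (0 columns of per-sample values left out). The other 14 samples were not analysed here.

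Tests used edgeR 4.0.16 in R 4.3.3 (TMM factors, quasi-likelihood fit and F test, group means, no block, Benjamini-Hochberg adjustment over all peaks tested, threshold 0.05) on 27 libraries of 3 lines and 166430 of 184964 peaks, those where over 6 libraries had over 10 counts. The 4 SOX2-FKBP libraries of 0.5 and 1 h were not fitted. DESeq2 1.42.0, the tool of the methods, was an alternative. The pipeline was also run on simulated counts with known changes. These had the same spread at a given level in every library, so they cannot show how calls fare with a noisier library. The SE of a log2 fold change was taken from the F statistic (absolute change over the root of F). Total counts per fitted library lie between 1817191 and 17575631.

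Positions and sequences are mm10 (GRCm38), with starts from GENCODE vM21, and 0 peaks end past a chromosome. A locus is a summit within 50 kb of an annotated start of the gene, as position only, and peaks are named by the gene whose intron or exon holds them or by the nearest coding gene. Named losses are the 15 most negative among peaks lost with and without 2 h replicate 2, with 50 or more normalized counts as the NT mean and all treated libraries below both NT libraries, and the 5 of these with the highest NT level. Named gains are the 5 largest by the mirrored rule, with the mean taken at 2 h. From each gene list up to 4 called peaks with the smallest p are named, with the Nanog promoter. Comparisons, members and gene lists were chosen with earlier results of these data known. Genes with several lost peaks, promoter losses, and the splits by word number, GC content and repeat masking were added after seeing the data.

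Normalization (DESeq2 size factors, total counts with and without mitochondrial peaks, loess and GC offsets), count filters, fewer libraries, each NANOG-FKBP replicate left out and the replicate block were tried as alternatives. Figures and shares were made in Python 3.11.15 with pandas, scipy and matplotlib.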

Additional observations from a re-analysis of the deposited data

Results flagged for a closer look

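The change at 2 h differed between NANOG-FKBP and SOX2-FKBP cells at 2914 peaks, and between NANOG-FKBP and OCT4-FKBP cells at 4189 peaks, by edgeR's interaction test at an adjusted p of 0.05. Values below are the NANOG-FKBP log2 change minus that of the other line, for named peaks that passed that test. The lines are separate clones, and the part of the line in these differences cannot be told apart from that of the factor.

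Against SOX2-FKBP cells the difference was -3.33 at Rtf1, -3.14 at Naa35, -3.33 at Syt16, -2.52 at Bach2, -2.12 at Kdm3b and -2.53 at Myc. Among the strong and listed peaks it was -1.71 at Gss, -2.05 at Klf5, -1.77 at the Spry4 peak 27540 bp from a start and -2.49 at Socs3. It was positive at Prickle2 (1.49), and at the gains near Cyb5r3 (2.82) and Syt17 (1.86).

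Against OCT4-FKBP cells the difference was -2.76 at Rtf1, -3.94 at Ephb1, -3.03 at Naa35, -2.08 at Eml4, -1.96 at Nlrp4f, -3.75 at Rwdd4a, -3.03 at Kdm3b, -2.37 at Rbpj, -2.87 at Tnrc18 and -1.35 at Myc. It was -2.11 at Gss, -1.40 at the peak upstream of Pou5f1, -2.12 at Klf5, -1.84 at Tbx3, -3.21 at Esrrb, -2.07 at the same Spry4 peak and -2.72 at Socs3. At the gains it was 2.99 near Cyb5r3 and 1.30 near Zfp64.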

How the results depend on the processing

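Lost peaks outnumbered gained peaks in all 19 alternatives, and each named loss that an alternative tested kept its direction there. The calls were less stable: of the 29 named losses 20 were called without 2 h replicate 1 and 21 without NT replicate 1. Calls held in 12 of 19 alternatives at Pou5f1, 14 of 19 at Prickle2, 12 of 18 at Tbx3 and at Apobec1, 14 of 18 at Socs3 and 8 of 18 at Esrrb (adjusted p up to 0.53). The 15 deepest were called in at least 17 of 18. Leaving out each NANOG-FKBP replicate of NT or 2 h in turn gave 426 to 1337 lost and 9 to 23 gained peaks. In these fits 2109 to 3022 and 2362 to 3843 peaks differed from SOX2-FKBP and OCT4-FKBP cells. Without NT replicate 1, 542 were lost and 2362 differed from OCT4-FKBP cells. Fits on fewer libraries have fewer residual degrees of freedom: the 11 NANOG-FKBP libraries gave 10 gained peaks, the 5 libraries of NT and 2 h alone 1034 lost and 5 gained, and these without 2 h replicate 2 575 lost and 2 gained. DESeq2 gave 1108 lost and 13 gained, and left 16134 peaks without an adjusted p. At least 10 counts in every library left 33328 peaks, with 86 lost, 0 gained (729 higher at an unadjusted p under 0.05 in edgeR, 13 gained in DESeq2 over all peaks), and 943 and 1252 that differed from the other lines. The share of lost peaks with a NANOG-type word was 62.7% over whole peaks, which are longer. The other alternatives moved no count of the comparison by over 1.5 times.

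The replicate numbers were not taken as pairs: deviations of NT and 2 h, 6 h and 24 h libraries with the same number correlated at 0.11, 0.05 and -0.02 in NANOG-FKBP cells, with 2 pairs each. Only same-numbered libraries were compared in this way, so a pairing across numbers was not tested. By a chi-square per peak of the raw counts, NT replicate 2 was nearer to 2 h replicate 3 (1.71) than to NT replicate 1 (2.59). NT replicate 1 was likewise nearer to 2 h replicate 1 (2.41). The shallow 2 h replicate 2 was far from each of the others (6.18 to 7.38). This value also grows with depth. Between treated times of that line the correlations were 0.41 to 0.50, and between times of SOX2-FKBP and OCT4-FKBP cells 0.16 to 0.36 and 0.34 to 0.60, so same-numbered libraries of those lines deviated together and the counts that compare lines depend on the block. A replicate block by number groups NT replicate 2 with 2 h replicate 2, and not with the nearer 2 h replicate 3. It gave 3301 lost and 544 gained (85.9% losses, against 98.3%), and 7558 and 10188 peaks that differed from the other lines. With GC offsets it gave 3118, 562, 7172 and 9822. The cause was not tested. It called 1548 of the 1561 lost peaks and all 29 named losses.

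The shallow 2 h replicate 2 limits weak peaks: 9.11% of all tested and 10.8% of lost peaks held 0 fragments there.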

Other observations

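Several genes were nearest to more than 1 lost peak, a choice made after the values were seen. Of 1336 coding genes nearest to a lost peak, 1152 had 1 and Oxr1, an oxidation resistance gene, had 5 of its 68 tested peaks. The genes below were picked for having the most, and 0.938% of all tested peaks were lost. All 5 were called without 2 h replicate 2. The deepest of the Oxr1 peaks lay in an intron (chr15:41451724-41452374), with a mean of 259 normalized counts in NT and 55.6 at 2 h (log2 fold change -2.07). Prdm1, the gene of a repressor of the germ line and of plasma cells, had 4 of 44 tested peaks, with log2 fold changes from -2.36 to -0.89, and 3 of them were called without replicate 2.

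Gata3, a GATA factor of trophoblast and T cells, was the nearest coding gene of 4 lost peaks out of 37, all far from it. Their distances from its start were 244718, 338436, 427499 and 430349 bp, and their log2 fold changes -2.24, -2.58, -2.31 and -1.61. All 4 were also called without 2 h replicate 2, whereas no peak within 50 kb of Gata3 was called. Whether any of these peaks acts on Gata3 was not tested.

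Among the 44 lost peaks within 500 bp of a start, the smallest p was at Qtrt2, a subunit of a tRNA modifying enzyme, 220 bp from the start, where the mean level went from 298 in NT to 47.7 at 2 h (log2 fold change -2.54, adjusted p = 1.33e-05, edgeR). Of the 200 bp around that summit 88.0% are masked as repeat, so the value is uncertain. At Trpc4ap it went from 94.4 to 22.5 (log2 fold change -2.31), at Zfp827 from 141 to 38.3 (-1.71) and at Rnf181 from 226 to 85.6 (-1.47). These 4 were picked after their values were seen.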
